A study of Mus musculus with 10 samples.

Results

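This account concerns 44 mouse genes that encode RNA polymerase I, its initiation factors and the nucleolar proteins that build ribosomes. They were listed by symbol and not by a measured value, although earlier results of these data were known, and all 44 were found among the 55421 genes of the count table. Bulk RNA-seq was done on splenic germinal center B cells of immunized C57BL/6 mice aged 8 to 10 weeks, taken 10 days after immunization by binding to PNA beads. Libraries were made after depletion of ribosomal RNA. The groups were Pbrm1-/- CC cells (HOMO CC, n = 2), Pbrm1-/- CB cells (HOMO CB, n = 2), Pbrm1+/+ CC cells (WT CC, n = 3) and Pbrm1+/+ CB cells (WT CB, n = 3). Pbrm1 encodes a subunit of the PBAF chromatin remodeller. The labels give neither the immunogen, nor the kind of Pbrm1 allele, nor the tissues in which it was changed, and they do not spell out CB and CC. They also do not say that replicates came from separate animals, and the spread behind the p-values may therefore be technical.

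Ribosomes are assembled in the nucleolus. RNA polymerase I transcribes the long precursor of the 18S, 5.8S and 28S ribosomal RNAs, small nucleolar RNPs (snoRNPs) guide its chemical modification, and sets of assembly factors then fold, cut and export the small and the large subunit. In a germinal center, centroblasts divide in the dark zone, while centrocytes compete for antigen and T cell help in the light zone. Positively selected light zone cells switch on MYC, a transcription factor that binds E boxes and is known as a driver of ribosome biogenesis genes.

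The libraries held between 9954006 and 67625110 counts, and no member had fewer than 206 counts in any of them. The 4 listed dark zone markers summed to 311 and 325 CPM in HOMO CC, against 944 and 982 CPM in HOMO CB, and to between 261 and 296 CPM in WT CC, against 846 to 1215 CPM in WT CB. The 4 light zone markers ran the other way in both genotypes, and the 5 B cell markers and 5 germinal center markers were present in all libraries. Pbrm1 itself had 152 and 150.4 CPM in HOMO CC, against 239, 239 and 250.3 CPM in WT CC, and 178 and 164 CPM in HOMO CB, against 319, 309 and 312 CPM in WT CB. The counts cover the whole gene, so they do not show whether its protein was lost. The gene Gnl3 overlaps Pbrm1 on the other strand, and how the counting treated strand is not given. Several features of the libraries varied within WT. Transcripts of the ribosomal RNA locus (Gm26917 and Gm42418) took 10.8% and 11.2% of counts in HOMO CC and 22.7%, 19.0% and 13.5% in WT CC libraries 1, 2 and 3, against 8.72% to 11.9% in the CB libraries. Of the 12 macrophage markers, Apoe had 212 to 399 CPM in all libraries. The other 11 summed to 20.1 and 26.0 CPM in HOMO CC, against 8.64 and 10.7 CPM in HOMO CB, while the WT CC sums were 713 CPM for library 1, 176 CPM for library 2 and 40.2 CPM for library 3, against 10.7 to 18.1 CPM in WT CB. The 4 plasma cell markers summed to 339 and 316 CPM in HOMO CC, against 792 and 731 CPM in HOMO CB, and to 221 to 372 CPM in WT CC, against 610.2 to 649 CPM in WT CB. These sums followed Jchain and Xbp1, both lower in CC of each genotype, and the other markers did not run that way. Prdm1 had 7.93 and 6.83 CPM in HOMO CC, against 4.87 and 3.74 CPM in HOMO CB. In WT it had 5.63 to 14.2 CPM in CC, against 2.01 to 6.93 CPM in CB. The fractions of Sdc1 overlapped in both genotypes. The 4 erythroid markers reached 41.6 CPM in WT CC library 1 and 8.7 CPM in WT CC library 2, and at most 1.99 CPM elsewhere. The 8 neutrophil markers summed to 127 and 159 CPM in the HOMO CC and CB libraries numbered 2 and to at most 14.5 CPM elsewhere.

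All 44 members passed the filter on low counts, and each had at least 5 CPM in all 10 libraries. CPM are counts per library size scaled by TMM factors. Per length, their median level was 14.98 RPKM, against 3.82 RPKM for all 16596 genes tested, and 43 of 44 lay above that median. The highest level per length was that of Npm1, nucleophosmin, a histone and ribosome chaperone of the nucleolus, at 199 RPKM over the 10 libraries. Ncl, the RNA-binding protein nucleolin, followed with 94.5 RPKM and Taf1d, a subunit of the RNA polymerase I selectivity factor SL1, with 61.6 RPKM. Wdr12, a partner of Pes1 and Bop1 in large subunit assembly, had the lowest level, 3.48 RPKM. Together, Ncl, Npm1 and Taf1d gave between 33.9% and 44.9% of the summed CPM of the members, so that sums over the list follow these genes. Members lie on 16 chromosomes. Of the 44, 7 have snoRNA genes inside them (26 in all, of which 8 lie in Taf1d, 5 in Nop56 and 4 in Nop58). Another gene lies antisense over 20 of them, Polr1a, Rrp1b, Noc2l, Rrp9, Mybbp1a and Nop56 included. How the counting treated strand is not given in the sources used here. Reads of members and of their antisense partners therefore cannot be told apart.

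In CC compared with CB, 41 of 44 members had a positive log2 change in each genotype. In HOMO, 12 of 44 members rose and 0 fell (edgeR quasi-likelihood test, adjusted p under 0.05), while 2.46% of all genes tested rose and 2.98% fell. In WT, 19 of 44 members rose and 1 fell, while 11.6% of all genes tested rose and 12.3% fell. In HOMO no member fell at an unadjusted p under 0.05 either, and DESeq2 called 17 higher and 0 lower there (4.97% and 5.02% of all genes), and 23 higher and 1 lower in WT (13.9% and 13.5%). With 2 HOMO libraries a fraction, the number that rose in HOMO was 4 without HOMO CC library 2 (0.467% of all genes), 4 without HOMO CC library 3 (0.571%), 3 without HOMO CB library 2 (0.516%) and 2 without HOMO CB library 3 (0.342%), where the lone library was assumed to vary like the other groups. It was 19 without WT CB library 3 (4.22%). The median log2 change of the 44 members was 0.36 in HOMO, against -0.01 over all genes tested, and 0.32 in WT, against 0.01. The libraries of the fractions did not overlap for 39 members that were higher and 1 that was lower in CC of HOMO (28.8% and 33.2% of all genes), and for 22 that were higher and 1 that was lower in CC of WT (16.5% and 17.9%). Groups of 2 libraries lie apart more often than groups of 3, so these counts are not comparable between the genotypes. The HOMO and the WT comparison share no library, but both came from 1 fit over all 10 libraries with a shared estimate of the spread. The HOMO calls therefore also depend on the WT libraries, as the count without WT CB library 3 shows. All 12 members that rose in HOMO were among the 19 that rose in WT. This is 100% of the HOMO calls and 63.2% of the WT calls of the members. Over all genes tested, 409 rose in HOMO and 1917 in WT, and 395 (2.38%) rose in both. Most genes that rose in HOMO thus rose in WT too, so this overlap is not particular to the members. The 12 members that rose in both were Polr1a, Polr1b, Nolc1, Nop56, Rrp9, Heatr1, Utp20, Rrp12, Nop2, Noc2l, Rrp1b and Mybbp1a. In bulk RNA, a larger share of cells with high levels and more RNA per cell cannot be told apart.

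**Figure D1:**
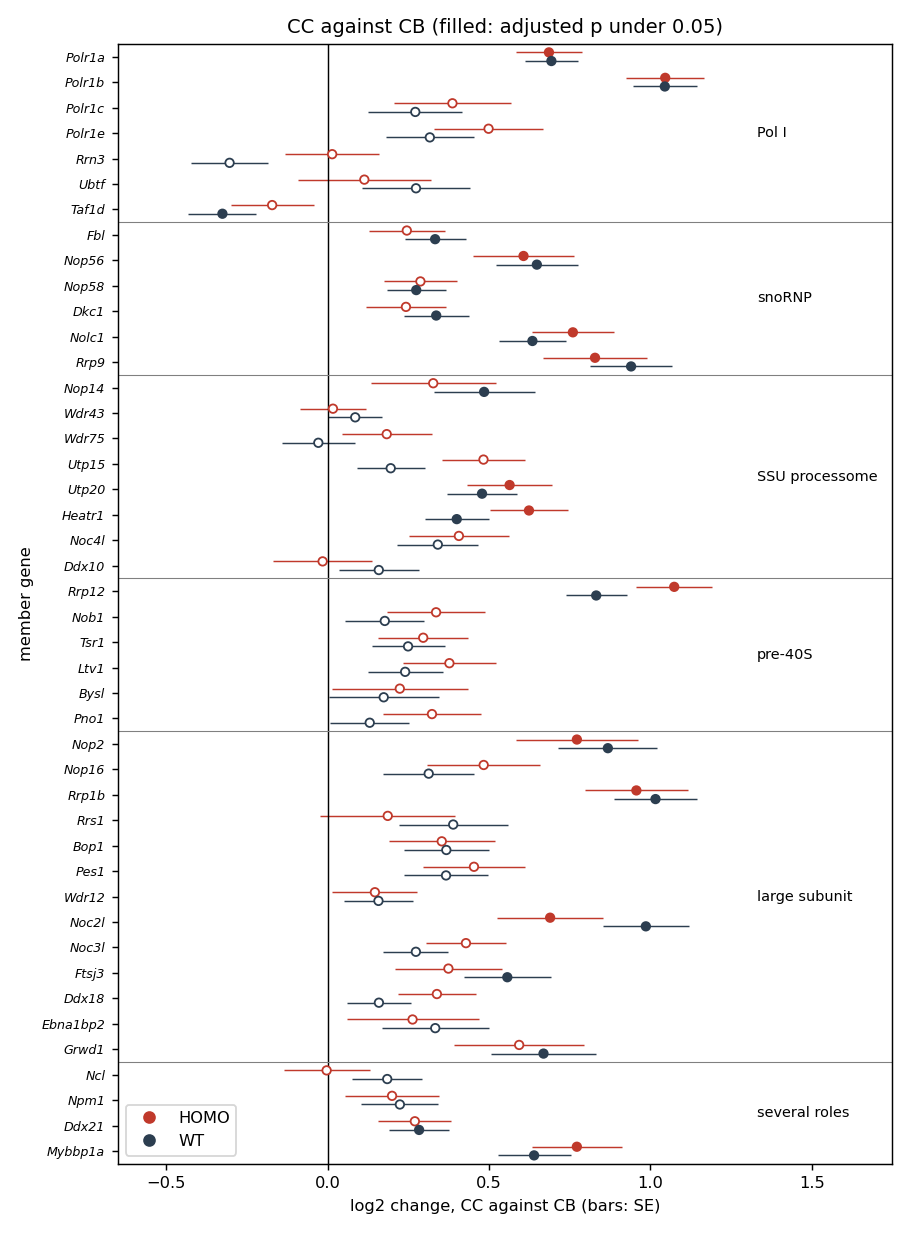
Change of each of the 44 members in CC against CB, on the log2 scale of the edgeR fit, in HOMO (red, n = 2 a fraction) and WT (dark, n = 3 a fraction). Bars are SEs and filled points passed at an adjusted p under 0.05; 41 of 44 points lie above 0 in each genotype, Rrp12 farthest in HOMO (1.07) and Polr1b in WT (1.04), and Taf1d lies below 0 in both.

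The WT numbers were taken to pair CC with CB libraries, from the data and not from a label. By these numbers, 35 of 44 members were higher in CC in 3 of 3 pairs, as were 28.3% of all genes tested. Of the other members, 6 were higher in 2 pairs, 2 (Rrn3 and Wdr75) in 1 pair and 1 (Taf1d) in 0 pairs. With the WT number as a fixed block, 24 members rose and 0 fell in HOMO (6.3% and 7.53% of all genes), and 30 rose and 2 fell in WT (16.9% and 18.4%). The 2 that fell were Taf1d and Rrn3. Members that rose in WT in this fit only were Bop1, Ebna1bp2, Ltv1, Noc3l, Noc4l, Pes1, Polr1c, Polr1e, Rrs1, Tsr1 and Ubtf, compared with the main fit. No HOMO libraries were paired in it, and the estimate of the spread was shared with WT. Macrophage and ribosomal RNA locus counts were highest in WT CC libraries 1 and 2. Without them, which left WT CC as 1 library that was assumed to vary like the other groups, 14 members rose and 0 fell in HOMO (3.59% and 4.3% of all genes), and 8 rose and 0 fell in WT (2.44% and 2.52%). These 8 were Polr1a, Polr1b, Rrp12, Rrp1b, Rrp9, Noc2l, Heatr1 and Utp20. For comparison, 10 members rose in WT when the CC and CB libraries numbered 1, or those numbered 2, were left out. All genes called in either direction then numbered 1010 without number 1 and 1243 without number 2, against 3965 with all libraries. With the ribosomal RNA locus share as a covariate, 14 members rose and 0 fell in HOMO (3.14% and 3.96%), and 6 rose and 0 fell in WT (1.86% and 2.1%), namely the same genes except Rrp9 and Noc2l. The median log2 change of the members was 0.38 in HOMO and 0.21 in WT without these libraries, with 2 members below 0 in HOMO and 9 in WT, and 0.33 in HOMO and 0.14 in WT with the covariate, with 5 members below 0 in HOMO and 13 in WT. Whether macrophage, erythroid, plasma cell and ribosomal RNA locus counts took part in the changes was not tested.

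Among the 7 members of RNA polymerase I and its initiation factors, 2 core subunits rose in CC of both genotypes, while in WT 1 initiation factor fell. Polr1b encodes the second largest subunit (ENSMUSG00000027395.15, mm10 chromosome 2, 129100995 to 129126594). It had 50.2 and 54.3 CPM in HOMO CC, against 25.0 and 25.5 CPM in HOMO CB, and 49.2, 58.3 and 54.2 CPM in WT CC, against 26.1, 27.5 and 24.8 CPM in WT CB. The CC libraries lay far above the CB libraries in both genotypes, with no overlap. Its log2 change was 1.05 (SE 0.12, edgeR adjusted p = 0.000812) in HOMO, and 1.04 (SE 0.098, edgeR adjusted p = 7.17e-05) in WT. Polr1a encodes the largest, catalytic subunit (ENSMUSG00000049553.11, chromosome 6, 71909053 to 71984935). It had 138 and 138 CPM in HOMO CC, against 84.2 and 87.2 CPM in HOMO CB, and 122, 134 and 135 CPM in WT CC, against 82.1, 76.4 and 82.8 CPM in WT CB. Again no CC library overlapped a CB library. The log2 change of Polr1a was 0.69 (SE 0.1, edgeR adjusted p = 0.003) in HOMO, and 0.69 (SE 0.083, edgeR adjusted p = 0.000278) in WT.

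None of the other 5 members of this step passed in HOMO, and 1 passed in WT. Rrn3, the factor that makes RNA polymerase I competent to start at the ribosomal RNA promoter, had 63.7 and 57.4 CPM in HOMO CC, against 59.6 and 60.4 CPM in HOMO CB, and 46.2, 41.1 and 56.0 CPM in WT CC, against 63.3, 59.2 and 54.3 CPM in WT CB. Its fractions overlapped in both genotypes, and its log2 change was 0.01 in HOMO and -0.30 in WT, neither of which passed. In WT Rrn3 passed as lower in CC under 6 of 27 alternatives, the fixed block among them. Ubtf, which binds along the ribosomal RNA genes, had 291 and 284 CPM in HOMO CC, against 274 and 256 CPM in HOMO CB, and 432, 405 and 272 CPM in WT CC, against 333, 339 and 246 CPM in WT CB. The WT values of Ubtf varied between libraries more than the fractions differed, with library 3 low in both fractions. By number, CC was higher in each WT pair, and Ubtf passed as higher in WT with the fixed block. With the ribosomal RNA locus covariate its WT change turned to -0.28. Taf1d was the 1 member that fell in WT. It had 518 and 522 CPM in HOMO CC, against 575 and 597 CPM in HOMO CB, and 442, 514 and 509 CPM in WT CC, against 607, 693 and 537 CPM in WT CB. Its CC libraries lay below the CB libraries in both genotypes, with log2 changes of -0.17 in HOMO, which did not pass, and -0.33 in WT. Its HOMO value turned to 0.04 with an offset for GC content, and its WT call was lost under 17 of 27 alternatives. Polr1c, a subunit shared with RNA polymerase III, and Polr1e, a further subunit of the enzyme, passed in neither genotype, and both passed as higher in CC of both genotypes with the WT number as a fixed block. Polr1c spanned 30.3 to 33.2 CPM in HOMO CC, 23.9 to 24.7 CPM in HOMO CB, 34.7 to 42.2 CPM in WT CC and 25.3 to 38.1 CPM in WT CB. Polr1e spanned 26.7 to 27.3, 18.8 to 19.4, 27.2 to 33.0 and 19.6 to 26.9 CPM in the same order of groups. The fractions of Polr1e were apart in both genotypes, with log2 changes of 0.50 in HOMO and 0.32 in WT. Those of Polr1c were apart in HOMO (0.39) and overlapped in WT (0.27), where CC was higher in 3 of 3 pairs.

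**Figure D2:**
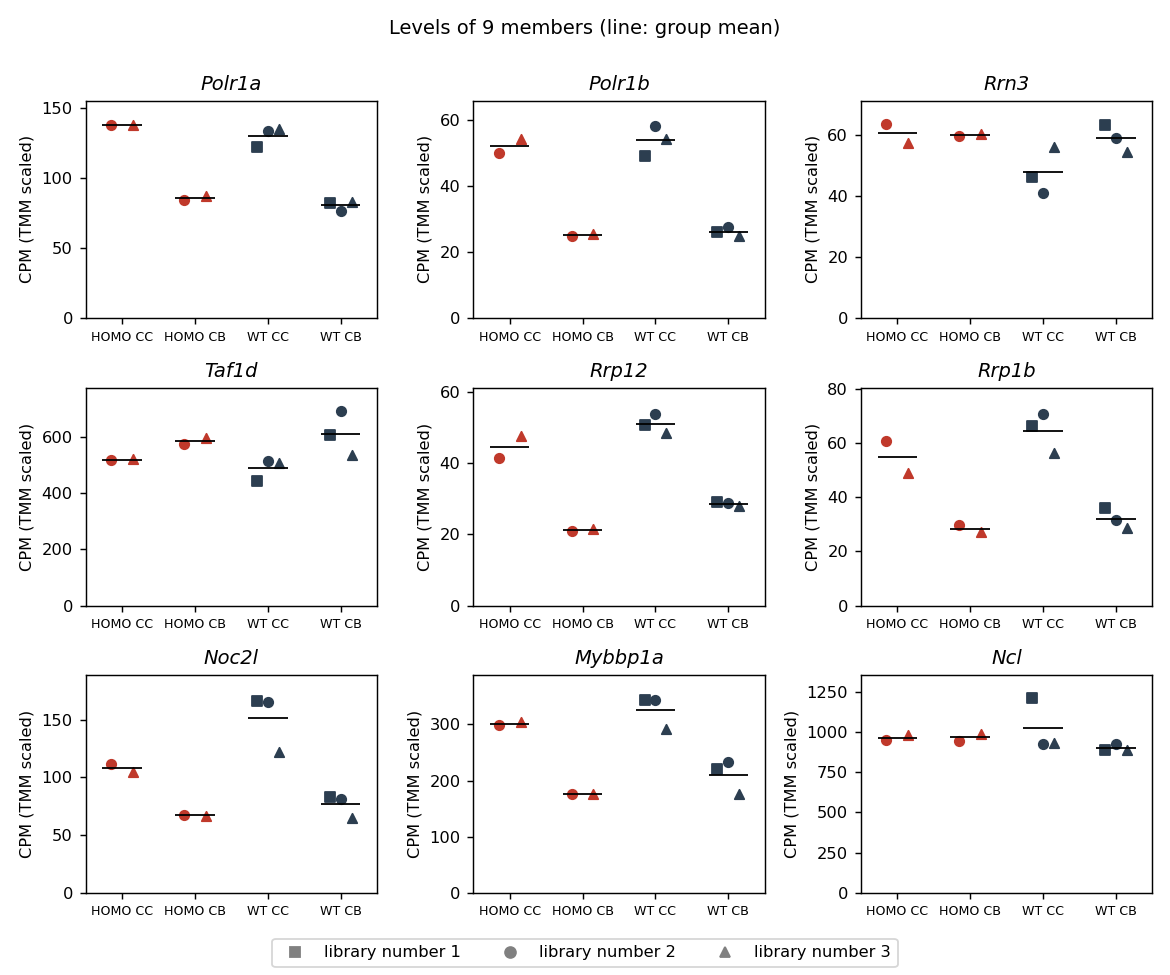
TMM-scaled CPM of 9 members in each library (red, HOMO; dark, WT; the marker shape gives the library number), with lines at group means and axes that start at 0. Polr1a, Polr1b, Rrp12, Rrp1b, Noc2l and Mybbp1a are higher in CC than in CB in both genotypes, Taf1d is lower, and the fractions of Rrn3 overlap in both.

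Of the 6 snoRNP members, 3 rose in CC of HOMO, and all 6 rose in CC of WT. Rrp9, the protein of the U3 snoRNP that is needed for the first cuts toward 18S RNA, had 17.5 and 19.5 CPM in HOMO CC, against 10.5 and 10.3 CPM in HOMO CB, and 31.1, 29.5 and 26.2 CPM in WT CC, against 15.7, 16.5 and 13.1 CPM in WT CB. The fractions were apart in both genotypes, and HOMO lay below WT in each fraction. For Rrp9 the log2 change was 0.83 (SE 0.16, edgeR adjusted p = 0.012) in HOMO, and 0.94 (SE 0.13, edgeR adjusted p = 0.000601) in WT. Nolc1, a chaperone of snoRNPs known as Nopp140, had 101 and 109 CPM in HOMO CC, against 60.4 and 63.1 CPM in HOMO CB, and 118, 117 and 106 CPM in WT CC, against 77.2, 79.7 and 63.4 CPM in WT CB. Its CC libraries were higher than its CB libraries in both genotypes. For Nolc1 the log2 change was 0.76 (SE 0.13, edgeR adjusted p = 0.00573) in HOMO, and 0.63 (SE 0.1, edgeR adjusted p = 0.00175) in WT. Nop56, a core protein of box C/D snoRNPs, had 155 and 154 CPM in HOMO CC, against 102 and 101 CPM in HOMO CB, and 230.2, 214 and 161 CPM in WT CC, against 129, 141 and 116 CPM in WT CB. The fractions did not overlap in either genotype, and HOMO lay below WT in each fraction, in CC just below WT library 3. The log2 change of Nop56 was 0.61 in HOMO, and 0.65 (SE 0.13, edgeR adjusted p = 0.00483) in WT. The methyltransferase fibrillarin (Fbl) rose by a log2 change of 0.33 in WT, the pseudouridine synthase dyskerin (Dkc1) by 0.34 and the box C/D protein Nop58 by 0.27. These calls were lost under 13 of 27 alternatives for Fbl, 11 for Dkc1 and 15 for Nop58, and with the ribosomal RNA locus covariate no snoRNP member passed in WT. Their fractions did not overlap in HOMO either, at 38.1 to 38.1 against 30.6 to 33.7 CPM for Fbl, 87.7 to 102 against 78.5 to 81.7 CPM for Dkc1 and 147 to 153 against 119 to 127 CPM for Nop58, but none of these 3 passed there. Summed over the 6 genes, snoRNP proteins made up 559 and 561 CPM in HOMO CC, against 400.5 and 416 CPM in HOMO CB, and 688, 639 and 576 CPM in WT CC, against 461, 480 and 415 CPM in WT CB.

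Of 8 members of the small subunit processome, the early particle that cuts the precursor of 18S RNA, 2 rose in HOMO, and in WT the same 2 and Nop14. Heatr1, the mammalian counterpart of yeast Utp10, had 186 and 177 CPM in HOMO CC, against 115 and 120.3 CPM in HOMO CB, and 134, 149 and 172 CPM in WT CC, against 119, 113 and 112 CPM in WT CB. No CC library overlapped a CB library in either genotype, and the WT values of CC spread more than those of CB. Its log2 change was 0.62 (SE 0.12, edgeR adjusted p = 0.0122) in HOMO, and 0.40 in WT. Utp20 is a very large scaffold protein of the same particle. It had 131 and 138 CPM in HOMO CC, against 90.1 and 91.8 CPM in HOMO CB, and 109, 112 and 139.9 CPM in WT CC, against 84.0, 81.8 and 92.7 CPM in WT CB. The fractions were apart in both genotypes. For Utp20 the log2 change was 0.56 (SE 0.13, edgeR adjusted p = 0.0306) in HOMO and 0.48 in WT. Nop14 rose in WT (0.48 on the log2 scale), a call lost under 13 of 27 alternatives, although WT CC library 3, at 40.6 CPM, lay below WT CB library 2, at 43.3 CPM. Utp15 spanned 50.9 to 53.4 CPM in HOMO CC, against 36.2 to 38.4 CPM in HOMO CB, and 37.7 to 48.9 CPM in WT CC, against 37.4 to 39.2 CPM in WT CB. Its HOMO fractions were apart and its WT fractions overlapped, and it passed in neither. Wdr43 and Wdr75, which act with Utp15 and Heatr1 in 1 subcomplex, differed little between the fractions. Wdr43 spanned 143 to 145 and 139.8 to 145 CPM in HOMO CC and CB and 146 to 167 and 140.2 to 152 CPM in WT CC and CB. Wdr75 spanned 51.1 to 52.6 and 45.3 to 46.1 CPM in HOMO CC and CB and 36.0 to 47.7 and 38.9 to 46.1 CPM in WT CC and CB. Noc4l spanned 31.2 to 32.0 CPM in HOMO CC and 23.5 to 24.2 CPM in HOMO CB, with WT CC at 35.8 to 37.6 and WT CB at 23.4 to 32.8 CPM. The helicase gene Ddx10 had 49.6 to 49.7, 48.0 to 52.2, 50.6 to 70.6 and 50.8 to 52.6 CPM in HOMO CC, HOMO CB, WT CC and WT CB. Its highest value came from WT CC library 1 and the other 9 libraries lay between 48.0 and 52.6 CPM.

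Among the 6 members that act on the later pre-40S particle, 1 rose in each genotype, and it was the same gene. Rrp12, which in yeast takes part in the export of both subunits (mm10 chromosome 19, 41862851 to 41896173), had 41.4 and 47.6 CPM in HOMO CC, against 20.9 and 21.4 CPM in HOMO CB, and 50.6, 53.9 and 48.3 CPM in WT CC, against 29.1, 28.7 and 28.0 CPM in WT CB. It had the largest log2 change of all members in HOMO, 1.07 (SE 0.12, edgeR adjusted p = 0.000596). In WT the log2 change was 0.83 (SE 0.094, edgeR adjusted p = 0.000212). In CB, both HOMO libraries lay below all 3 WT libraries. The other members of this step were Nob1, the nuclease that makes the final cut at the end of 18S RNA, Tsr1, Ltv1, Bysl and Pno1. None of these 5 passed in either genotype. Their CC values were above their CB values in HOMO, with 2 libraries a fraction, and overlapped them in WT, with 3. Nob1 spanned 24.7 to 27.9 against 20.4 to 21.2 CPM in HOMO CC and CB, and 26.2 to 32.4 against 22.4 to 26.9 CPM in WT CC and CB. Tsr1 spanned 71.8 to 73.5 against 59.0 to 59.4 CPM in HOMO and 71.5 to 93.7 against 62.2 to 74.8 CPM in WT. For Ltv1, Bysl and Pno1 the lowest and highest of the 10 libraries were 20.6 and 32.8, 24.3 and 40.1 and 24.9 and 34.7 CPM.

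Large subunit assembly is the most numerous step, with 13 members, of which 3 rose in HOMO and 5 in WT. Rrp1b, a nucleolar protein related to yeast Rrp1 (mm10 chromosome 17, 32036100 to 32062865), had 60.8 and 49.2 CPM in HOMO CC, against 29.7 and 27.1 CPM in HOMO CB, and 66.4, 71.0 and 56.2 CPM in WT CC, against 36.0, 31.5 and 28.5 CPM in WT CB. The CC libraries were far above the CB libraries in both genotypes. For Rrp1b the log2 change was 0.96 (SE 0.16, edgeR adjusted p = 0.00559) in HOMO, and 1.02 (SE 0.13, edgeR adjusted p = 0.000384) in WT. Noc2l, a counterpart of yeast Noc2 that also binds p53, had 112 and 105 CPM in HOMO CC, against 67.9 and 66.6 CPM in HOMO CB, and 166, 165 and 122 CPM in WT CC, against 83.4, 81.4 and 65.0 CPM in WT CB. The fractions were apart in both genotypes, and in CC both HOMO libraries were below all WT libraries. The log2 change of Noc2l was 0.69 (SE 0.16, edgeR adjusted p = 0.033) in HOMO, and 0.99 (SE 0.13, edgeR adjusted p = 0.000581) in WT. Nop2, the methyltransferase that modifies a cytosine of 28S RNA, had 68.5 and 68.4 CPM in HOMO CC, against 39.7 and 40.5 CPM in HOMO CB, and 101, 99.5 and 68.5 CPM in WT CC, against 53.0, 54.1 and 40.5 CPM in WT CB. In CC, WT library 3 lay level with the HOMO libraries, while WT libraries 1 and 2 were well above them. For Nop2 the log2 change was 0.77 in HOMO, and 0.87 (SE 0.15, edgeR adjusted p = 0.00279) in WT. Ftsj3, a methyltransferase of precursor RNA, rose by 0.56 in WT on the log2 scale, and Grwd1, a chaperone of a ribosomal protein in yeast, by 0.67, and each call was lost under 5 of 27 alternatives. Ftsj3 spanned 84.7 to 85.9 against 63.1 to 68.4 CPM in HOMO CC and CB, and Grwd1 22.7 to 26.1 against 14.9 to 17.4 CPM, and neither passed there.

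The 3 genes of the PeBoW complex, which processes the 28S and 5.8S precursors, passed in neither genotype in the main fit. Pes1 and Bop1 passed as higher in CC of both genotypes with the WT number as a fixed block. DESeq2 called Pes1 in both genotypes and Bop1 in WT. Pes1 had 90.2 and 97.2 CPM in HOMO CC, against 66.0 and 70.7 CPM in HOMO CB, and 113, 104 and 89.8 CPM in WT CC, against 83.3, 90.2 and 64.7 CPM in WT CB. Its fractions were apart in HOMO and overlapped in WT, where library 3 was lowest in each fraction and CC was higher in each numbered pair. Bop1 spanned 54.8 to 61.5 against 43.9 to 46.9 CPM in HOMO CC and CB, and 59.3 to 76.9 against 46.1 to 59.7 CPM in WT CC and CB. Wdr12 spanned 45.4 to 47.6 against 39.7 to 44.3 CPM in HOMO and 37.6 to 46.2 against 34.4 to 39.4 CPM in WT. Rrs1, an assembly factor of the 5S RNP, Nop16, Ddx18 and Ebna1bp2 passed in neither genotype either, and their fractions were apart in HOMO and overlapped in WT. Noc3l was apart in both genotypes, at 36.1 to 38.1 against 27.5 to 27.6 CPM in HOMO and 28.2 to 34.2 against 25.3 to 26.2 CPM in WT, and did not pass. Rrs1 had 41.9 and 45.6 CPM in HOMO CC, against 37.6 and 39.3 CPM in HOMO CB, and 77.9, 64.7 and 45.1 CPM in WT CC, against 52.2, 50.4 and 41.2 CPM in WT CB. Over the 10 libraries Nop16 ran between 20.4 and 33.1, Ddx18 between 42.9 and 57.4 and Ebna1bp2 between 36.7 and 68.6 CPM.

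Of the 4 nucleolar proteins with several roles, 1 rose in HOMO and 2 in WT. Mybbp1a, a nucleolar protein that binds the transcription factor MYB (mm10 chromosome 11, 72441355 to 72451768), had 298 and 303 CPM in HOMO CC, against 177 and 176 CPM in HOMO CB, and 343, 344 and 292 CPM in WT CC, against 221, 232 and 175 CPM in WT CB. The fractions were apart in both genotypes, and WT library 3 lay just below HOMO in each fraction. The log2 change of Mybbp1a was 0.77 (SE 0.14, edgeR adjusted p = 0.00843) in HOMO, and 0.64 (SE 0.11, edgeR adjusted p = 0.00277) in WT. Ddx21, an RNA helicase that senses RNA polymerase I activity, rose by 0.28 in WT, a call lost under 15 of 27 alternatives, and its HOMO libraries had 255 to 262 CPM in CC against 208 to 221 CPM in CB. Ncl had 949.5 and 978 CPM in HOMO CC, against 944 and 988 CPM in HOMO CB, and 1214, 925 and 929.6 CPM in WT CC, against 886, 924 and 889.8 CPM in WT CB. Apart from the high WT CC library 1, its 9 other libraries lay between 886 and 988 CPM. Its log2 change was -0.00 in HOMO and 0.18 in WT. Npm1 had 569.6 and 555 CPM in HOMO CC, against 476 and 503 CPM in HOMO CB, and 684, 516 and 527 CPM in WT CC, against 515, 529 and 437 CPM in WT CB. Its WT fractions overlapped and its log2 change was 0.20 in HOMO and 0.22 in WT. Thus neither Ncl nor Npm1, the members with the highest levels per length, passed in either genotype in the main fit. In WT each passed as higher in CC under 3 of 27 alternatives, all with an offset for GC content. With the ribosomal RNA locus covariate their WT changes turned to -0.091 for Ncl and -0.052 for Npm1. Npm1 also passed in HOMO under 3 of 27 alternatives.

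**Figure D3:**
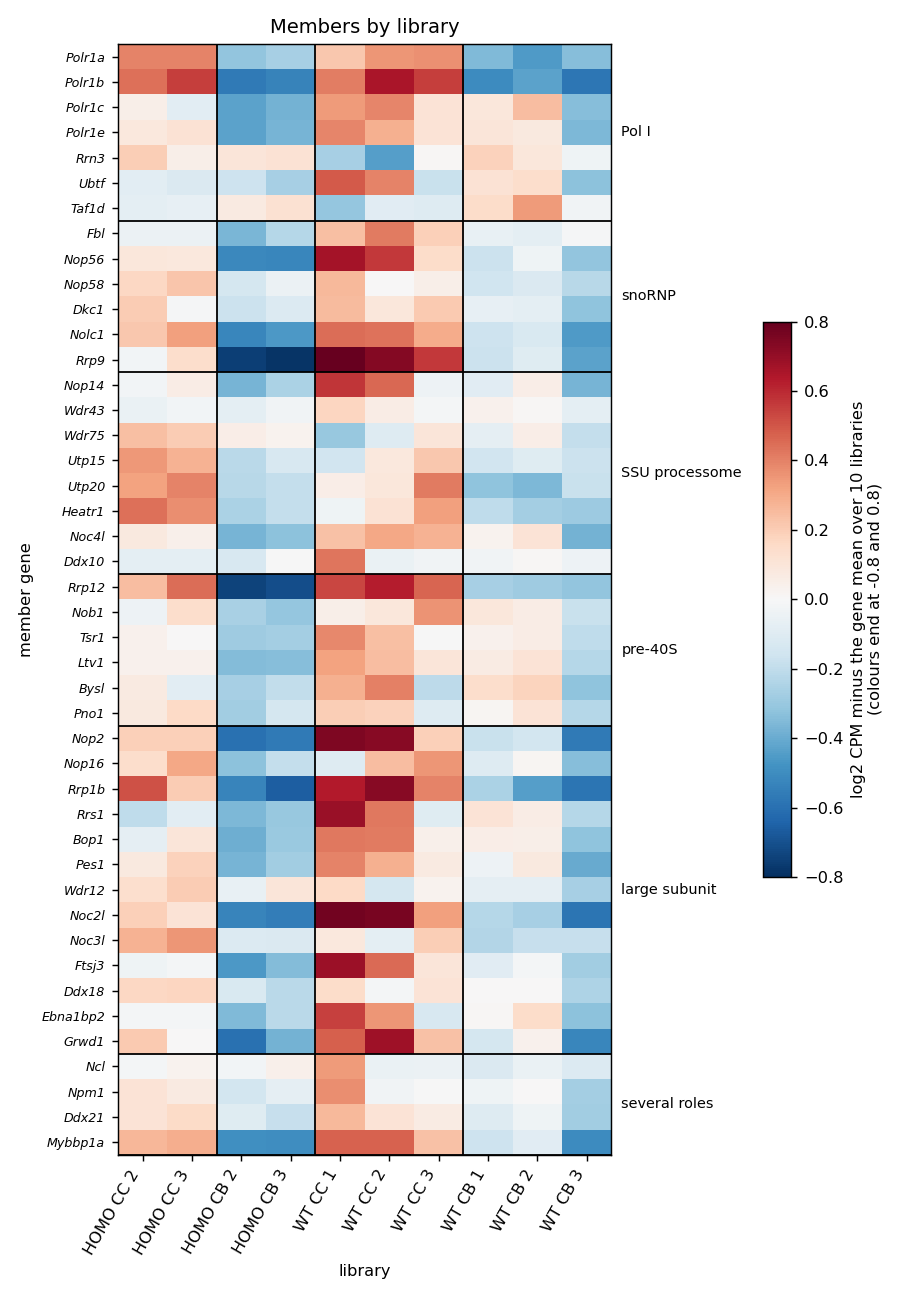
Level of each of the 44 members in each of the 10 libraries, as log2 CPM minus the mean of that gene over the libraries (colours end at -0.8 and 0.8), ordered by step. Columns of CC are mostly red and those of HOMO CB mostly blue. WT CB library 3 is as blue as the HOMO CB columns, while WT CB libraries 1 and 2 have medians near 0 (-0.07 and 0.00). Taf1d is bluer in CC than in CB.

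The promoters of 4 members are shown here because their genes rose in CC of WT and hold an E box, the site that MYC and related factors bind. The search was for CACGTG, which reads the same on both strands, in windows of 300 bases from 250 before to 50 after the RefSeq start (RefSeq, GRCm38.p6). Of 39 members matched in that table, 10 held the motif (25.6%). Counted by window, 10 of 48 windows of members held it (20.8%), against 7.15% of all 32851 windows and 7.84% of 21263 windows of protein-coding genes. Windows of members had a median GC content of 59.3%, against 52.7% for all windows. The 4 with the smallest p in CC against CB in WT are printed 5′ to 3′ along the gene, with the motif in capitals. That of Nop2 is a stretch that ends at its start site, and the other 3 show the motif with at most 12 bases on each side, since it lies after the start.
Mybbp1a (chr11:72441355-72441376, plus strand): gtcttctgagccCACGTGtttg
Nop2 (chr6:125131753-125131882, plus strand): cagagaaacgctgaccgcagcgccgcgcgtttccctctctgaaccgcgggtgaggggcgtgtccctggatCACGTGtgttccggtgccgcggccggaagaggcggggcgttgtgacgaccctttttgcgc
Utp20 (chr10:88826765-88826789, minus strand): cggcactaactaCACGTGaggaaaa
Grwd1 (chr7:45830740-45830767, minus strand): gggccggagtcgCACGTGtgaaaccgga
The motif began 60 bases before the start of Nop2 and at base 41 of Mybbp1a, 38 of Utp20 and 35 of Grwd1, counted from the start. The other members with it were Pes1, Rrn3, Tsr1, Ltv1, Pno1 and Wdr43. Of the 10 members with the motif, 4 rose in CC of WT, as did 13 of the 29 matched members without it. A match describes these letters only. The level of Myc was 69.8 and 68.4 CPM in HOMO CC, against 30.3 and 30.7 CPM in HOMO CB, and 67.3, 69.6 and 75.8 CPM in WT CC, against 30.3, 33.2 and 33.6 CPM in WT CB. Its part in the changes of the members was not tested.

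Whether the genotype altered the difference between the fractions was tested by the interaction. None of the 44 members passed (edgeR, 0.0% of all genes tested passed), none had an unadjusted p under 0.05 (2.62% of all genes did), and DESeq2 and limma-voom called 0 members as well. The 7 members that rose in WT and did not pass in HOMO, namely Ddx21, Dkc1, Fbl, Ftsj3, Grwd1, Nop14 and Nop58, were thus not shown to differ between the genotypes. The smallest p were those of Utp15, Rrn3 and Rrp12. The difference of log2 changes, HOMO minus WT, was 0.29 (SE 0.17) for Utp15, 0.32 (SE 0.19) for Rrn3 and 0.24 (SE 0.15) for Rrp12. In all 3 of these the change in HOMO was the more positive. Without both libraries of WT number 3, Rrn3 passed, with a difference of 0.50 (edgeR adjusted p = 0.0193), and 2 members in all were called higher and 1 lower (5.04% and 3.94% of all genes).

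Between the genotypes no member passed in either fraction. In CC, 0 of 44 passed by edgeR (0.0% of all genes tested), 10 had an unadjusted p under 0.05 (18.9% of all genes), DESeq2 called 2 lower (2.75% of all genes), edgeR with no filter on low counts called 4 lower (2.36%) and limma-voom called 0. The median log2 change was -0.13, against -0.03 over all genes, and 31 of 44 were negative. It was 0.05 with the ribosomal RNA locus covariate, with 17 of 44 negative, and -0.01 without WT CC libraries 1 and 2, with 23 negative. In CB, 0 of 44 passed by edgeR (0.0241% of all genes tested), 7 had an unadjusted p under 0.05 (12.5% of all genes), DESeq2 called 2 lower (0.85% of all genes) and limma-voom 0. There the median log2 change was -0.18, against -0.04 over all genes, and 34 of 44 were negative. It was -0.09 with the covariate and -0.12 with an offset for GC content, with 33 and 38 negative. The libraries of the genotypes did not overlap for 8 members that were higher and 12 that were lower in HOMO CC, against 17.7% and 17.4% of all genes. In CB they did not overlap for 4 higher and 13 lower members, against 18.8% and 16.4% of all genes.

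The smallest p in CC belonged to Rrp9, Noc2l and Fbl. The values of Rrp9 and Noc2l stand above, and HOMO lay below WT in both. Their log2 changes in CC, HOMO against WT, were -0.65 (SE 0.15, adjusted p = 0.105) and -0.48 (SE 0.15, adjusted p = 0.155), both by edgeR, and DESeq2 called these 2. Fbl had 38.1 and 38.1 CPM in HOMO CC, against 30.6 and 33.7 CPM in HOMO CB, and 46.5, 52.5 and 44.9 CPM in WT CC, against 37.8, 37.3 and 39.1 CPM in WT CB. Its HOMO libraries were below the WT libraries in each fraction, with a log2 change in CC of -0.33 (SE 0.11, adjusted p = 0.163). In CB the smallest p were those of Rrp12, Rrp9 and Polr1c, of which DESeq2 called the first 2. The log2 change in CB was -0.44 (SE 0.11, adjusted p = 0.208) for Rrp12, -0.54 (SE 0.14, adjusted p = 0.243) for Rrp9 and -0.42 (SE 0.16, adjusted p = 0.358) for Polr1c, all by edgeR. Polr1b and Polr1a, the core subunits, had log2 differences between -0.05 and 0.09 over both fractions.

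These comparisons turned on WT libraries 3. In CC, WT library 3 was the lowest WT library for 25 of 44 members, and in CB for 39 of 44. It lay nearer to the HOMO mean than to the mean of WT libraries 1 and 2 for 34 members in CC and 35 in CB. The median log2 difference of the HOMO mean from WT library 3 was -0.00 in CC and 0.03 in CB, against -0.20 in CC and -0.28 in CB from the mean of WT libraries 1 and 2. When both libraries numbered WT 3 were left out, 6 members were called higher and 16 lower in HOMO CC (16.5% and 14.8% of all genes), and 0 higher and 22 lower in HOMO CB (15.3% and 15.1%). Without WT CB library 3 alone, 8 members were called lower in CB (5.64% of all genes) and 1 in CC (0.336%). Without WT CC library 3 alone, 3 members were called higher and 9 lower in CC (7.45% and 7.37%), and 0 in CB (0.0122% and 0.0367%).

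The libraries also differed in a trend with GC content, which moved with the members. Across 8907 genes, the Spearman correlation of a library's deviation from the gene mean with GC content was -0.17 and -0.22 in HOMO CC, -0.63 and -0.60 in HOMO CB, 0.43, 0.55 and 0.15 in WT CC and 0.15, 0.25 and -0.46 in WT CB. Over the 44 members the median deviation, on the log2 scale, was 0.10 and 0.11 in HOMO CC, -0.32 and -0.26 in HOMO CB, 0.34, 0.28 and 0.11 in WT CC and -0.07, 0.00 and -0.31 in WT CB. Libraries with a more negative trend were thus mostly those with lower members, WT CB library 3 among them. Members had a median GC content of 50.0%, close to the 49.0% of all genes tested, and spanned 40.2% to 59.9%. With an offset for GC content in each library, 16 members rose and 0 fell in CC against CB in HOMO (3.28% and 3.4% of all genes), 29 rose and 0 fell in WT (13.9% and 11.6%), and none passed between the genotypes in either fraction. With that offset and without WT number 3, 4 members were called higher and 18 lower in HOMO CC (10.7% and 11.5% of all genes), and 1 higher and 11 lower in HOMO CB (9.35% and 7.19%).

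**Figure D4:**
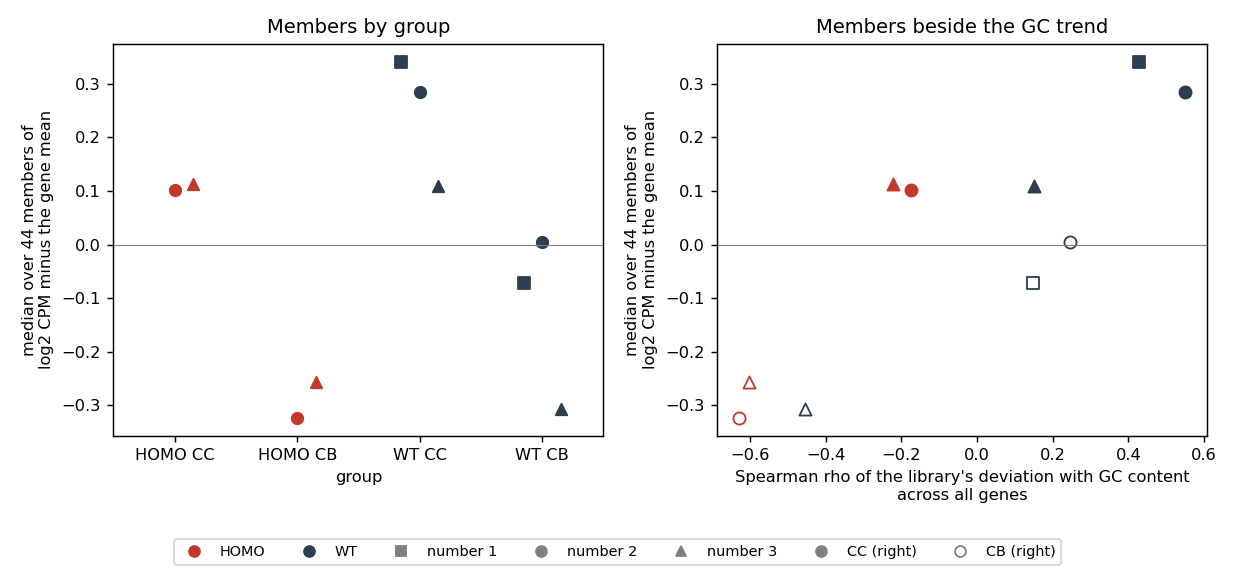
Median over the 44 members of log2 CPM minus the gene mean, for each library by group (left) and against the Spearman correlation of that library's deviation with GC content across 8907 genes (right; filled, CC; open, CB; red, HOMO; dark, WT). WT CB library 3, at -0.31, lies with the HOMO CB libraries (-0.32 and -0.26) and WT CC library 3, at 0.11, with the HOMO CC libraries (0.10 and 0.11), while the other WT libraries are higher in each fraction.

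Summed over the list, members took 5422 and 5453 CPM in HOMO CC, against 4516 and 4645 CPM in HOMO CB, and 6303, 5763 and 5345 CPM in WT CC, against 4909, 5108 and 4348 CPM in WT CB. The fractions did not overlap in either genotype. Between the genotypes, HOMO CC fell within the range of WT CC, and HOMO CB within that of WT CB. By step, the large subunit members summed to 752 and 757 CPM in HOMO CC, against 534 and 556 CPM in HOMO CB, and to 999, 943 and 768 CPM in WT CC, against 657, 671 and 535 CPM in WT CB. The 7 RNA polymerase I members, of which Taf1d was most abundant in CPM, summed to 1120.1 and 1113 CPM in HOMO CC, against 1061 and 1071 CPM in HOMO CB, and to 1165, 1225 and 1087 CPM in WT CC, against 1173, 1259 and 989 CPM in WT CB, where the fractions overlapped.

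A wider list of 127 other genes of ribosome biogenesis, all of which passed the filter on low counts, was tested in the same way. In CC against CB, 12 rose and 0 fell in HOMO, where 2.46% and 2.98% of all genes did, and 27 rose and 10 fell in WT, where 11.6% and 12.3% did. The median log2 change of these 127 genes was 0.10 in both genotypes. By step in WT, 1 of 13 further RNA polymerase I genes rose and 3 fell, 4 of 13 snoRNP genes rose and 0 fell, 7 of 35 small subunit processome genes rose and 2 fell, 0 of 8 pre-40S genes rose and 1 fell, 13 of 45 large subunit genes rose and 3 fell, and 2 of 13 genes of the RNA exosome, which trims precursors, rose and 1 fell. Among large subunit genes Mdn1, a giant ATPase of pre-60S remodelling, had the smallest p, with 473 CPM in HOMO CC, against 202 CPM in HOMO CB, and 444 CPM in WT CC, against 157 CPM in WT CB (group means). It rose by 1.23 on the log2 scale in HOMO and by 1.50 in WT. Gnl3, a nucleolar GTPase, rose by 0.86 in HOMO and 0.83 in WT, and Urb1 by 0.68 in HOMO and 0.50 in WT. Gnl3 overlaps Pbrm1 on the other strand and holds 3 snoRNA genes, so its reads cannot be told apart from those of Pbrm1. In the processome, Nat10, an RNA acetyltransferase, rose by 0.86 in HOMO and 0.87 in WT, and Pdcd11 by 0.59 in HOMO and 0.67 in WT. Aatf had a log2 change of 0.27 in HOMO, which did not pass, and rose by 0.93 in WT. In the snoRNP group, Znhit6, Nhp2 and Shq1 had log2 changes of 0.65, 0.49 and 0.59 in HOMO, which did not pass, and rose by 0.74, 0.50 and 0.48 in WT. The RNA polymerase I subunit genes split. Polr1g, Polr1d, which is shared with RNA polymerase III, and Polr1h had log2 changes of 0.79, -0.32 and -0.35 in HOMO, and none passed. In WT Polr1g rose by 0.88, while Polr1d fell by 0.60 and Polr1h fell by 0.74. Riok3, a kinase of the pre-40S group, fell by 0.28 in WT, while its relatives Riok1 and Riok2 did not pass. Exosc2 and Exosc7 of the exosome rose by 0.45 and 0.56 in WT, and the exosome cofactor C1d fell by 0.49. In the interaction, 0 of the 127 passed by edgeR, and 1 had an unadjusted p under 0.05 (0.787%, against 2.62% of all genes). Genes of this list that passed in WT and not in HOMO were thus not shown to differ between the genotypes. None of the 127 passed between the genotypes by edgeR in CC (17 at an unadjusted p under 0.05, which is 13.4% against 18.9% of all genes, 4 by DESeq2, 0 by limma-voom) or in CB (14 at an unadjusted p under 0.05, which is 11.0% against 12.5% of all genes, 0 by DESeq2, 0 by limma-voom).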

How the data were processed

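Gene-level read counts, whole numbers that are not normalized, were deposited by the authors for 10 libraries with a length for each gene (a score column here). Per the submitters' processing notes, FastQC, STAR, Subread, featureCounts, R 4.2.1 and mm10 were used. Settings for strand, multimapping and overlaps were not given in the sources used here. Members and lists were chosen with earlier results of these data known. Symbols were matched for 54587 identifiers with their version and 567 without it, and 267 were not matched. HOMO columns, numbered 2 and 3 where the titles have other numbers, were assigned to their group only.

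Genes were filtered with filterByExpr (minimum count 10, minimum total 15; 16596 left), scaled by TMM and fitted as 4 group means over all 10 libraries with the robust quasi-likelihood F-test of edgeR 4.0.16 in R 4.3.3. P-values were adjusted by Benjamini-Hochberg over all genes tested (threshold 0.05). The common biological coefficient of variation was 23.1%. RPKM used the deposited lengths, and GC content the longest transcript in GENCODE. Alternatives used DESeq2 1.42.0 and limma 3.58.1. The steps were tested on simulated counts. Of changes of 1.5-fold, 20.9% were recovered for CC against CB in HOMO and 44.8% in WT. For HOMO against WT, 37.3% were recovered in CC and 29.9% in CB. Changes of 2-fold were recovered at 74.6% for CC against CB in HOMO, 92.5% in WT, and 76.1% in CC and 85.1% in CB between the genotypes. Smaller changes can thus be missed. Genes named with full statistics are up to 10 members by smallest p in a comparison, or 3 where none passed.

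The WT numbers were checked for pairing over 8910 genes. Deviations of same-numbered CC and CB libraries from their group means correlated with r = 0.384, 0.424 and 0.426, and those of different numbers with -0.445 to 0.282, so the numbers were taken to pair the libraries, from the data and not from a label. Libraries of a group all differed by more than sampling noise. The counts give the depth, and errors of CPM beyond it come from the spread between libraries.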

Additional observations from a re-analysis of the deposited data

How the results depend on the processing

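Polr1b and Rrp12 rose in CC against CB of both genotypes under all 27 alternatives, as did Polr1a and Rrp1b in WT. In HOMO, Polr1a lost its call without HOMO CB library 2 or 3 and Rrp1b under 2 alternatives. Members that rose in CC against CB in HOMO numbered 12, and 31 without WT number 3 (33 with the offset), 35 (and 1 fell) with only the groups compared, 24 with the block and 26 with block and offset. All genes called, 904, numbered 1475 with no filter, 596 without WT number 1, 3706 without 3 (3212 with the offset), 1366 without WT CC libraries 1 and 2, 4452 with only the groups compared, 2295 with the block (1821 with the offset) and 1657 with DESeq2. Members that rose in WT numbered 19, and 10 without WT number 1, 10 without number 2, 8 without WT CC libraries 1 and 2, 6 with the ribosomal RNA locus share as a covariate, 29 with the GC content offset, 35 with that offset without WT number 3, 30 with the replicate block and 37 with block and offset. Members that fell there, 1 in the report, numbered 0 with upper-quartile scaling, without WT number 1 or 2, without WT CC libraries 1 and 2, with only the groups compared, with the covariate and with the GC content offset with or without the block, and 2 without WT number 3, with the fixed block and with the random block (correlation 0.307). All genes called there, 3965, numbered 1010 without WT number 1, 1243 without 2, 7404 without 3 (7237 with the offset), 858 without WT CC libraries 1 and 2, 2340 with only the groups compared and 656 with the covariate. For HOMO against WT in CC, where 0 members passed, 4 were lower with no filter, 2 with DESeq2, and 6 were higher and 16 lower without WT number 3 (4 and 18 with the offset). All genes called, 0, numbered 1 with upper-quartile scaling, 1314 with no filter, 2 with the stricter filter, 5035 without WT number 3 (3570 with the offset), 4 with the offset alone and 816 with DESeq2. In CB, 22 members were lower without WT number 3, 2 with DESeq2, and 1 was higher and 11 lower with the offset without WT number 3. All genes called, 4, numbered 590 with no filter, 0 without WT number 1 or 2 and with only the groups compared, 4895 without WT number 3 (2662 with the offset), 1 without WT CC libraries 1 and 2, 16 with the random block and 278 with DESeq2. For the interaction, 2 members were higher and 1 lower without WT number 3 (1 and 1 with the offset), and all genes called, 0, numbered 154 with no filter and 1445 without WT number 3 (1550 with the offset). The causes were not tested.

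Leaving out each library in turn gave 2 to 19 members higher and 0 lower in CC against CB in HOMO (174 to 1586 genes called), and 14 to 26 higher and 0 to 2 lower in WT (2099 to 5315). It gave 0 to 3 higher and 0 to 9 lower for HOMO against WT in CC (0 to 2424 genes), 0 higher and 0 to 8 lower in CB (0 to 1986) and 0 members for the interaction (0 to 36). Log2 changes turned sign for values that had not passed, in HOMO (Rrn3 -0.075 without HOMO CC library 2, where leaving out single libraries gave up to 0.074, and Taf1d 0.036 with the GC content offset, 0.039 with it without WT number 3 and 0.036 with it and the block) and in WT (with the covariate, Ubtf -0.28, Npm1 -0.052 and Ncl -0.091, and Ubtf -0.16 without WT CC libraries 1 and 2), and for Nop14 in WT, which had passed (-0.023, with the covariate). The block could not be fitted with a fixed term for HOMO against WT. The GC content offset without WT number 3 and that with the block were chosen after seeing the data. With 2 and 3 libraries a group and a strand setting that is not given, small changes and genes with antisense partners are uncertain.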
